A study of Mus musculus with 4 samples.

Results

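The genes described here are 10 p53 targets and apoptosis effectors, chosen by symbol out of the 32286 features of the count tables because they separate stress that cells tolerate from death signalling. They are Cdkn1a, Mdm2, Ccng1, Phlda3, Bbc3, Pmaip1, Bax, Bcl2l11, Tnfrsf10b and Eda2r, and all 10 were found. The study asked what the loss of SEL1L in neurons does to the brain, SEL1L being the cofactor of the ubiquitin ligase HRD1 in ER-associated degradation, the disposal of misfolded proteins from the endoplasmic reticulum. Single-nucleus RNA was sequenced from cortex and hippocampus of 5-week-old mice in 4 libraries, 1 mouse each. The 2 Sel1L fl/fl libraries are labelled as floxed at Sel1L alone, and the 2 Sel1L SynCre libraries from littermates in which a Synapsin I promoter drives Cre, so that deletion is directed to postmitotic neurons. By the breeding that the study describes, all 4 carried the floxed alleles, which was not checked here.

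The transcription factor p53 responds to DNA damage and other stress by switching on genes that halt the cell cycle, limit p53 itself or start apoptosis. In the intrinsic pathway of apoptosis, BH3-only proteins such as PUMA and BIM release BAX, which opens the outer mitochondrial membrane. Several of these genes have more than 1 regulator: the PERK arm of the unfolded protein response, through ATF4 and CHOP, is known to act on Bbc3, Bcl2l11 and Tnfrsf10b, and neurons are known to tolerate long stress of the endoplasmic reticulum without dying.

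The tables held 7366 to 12599 barcodes and 74082610 to 122870443 unique molecular identifiers (UMIs, each 1 counted transcript) per library, and 33323 nuclei were kept. Of these, 23533 were neuron-like, and 17916 of them fell into 14 subtypes that were tested. Another 9790 nuclei fell into 5 other classes. Names ending in "-like" rest on marker genes. Clusters led by Deptor, by Sulf1 and by Siglech stay under those genes, because too few markers were detected or, for the Siglech-led nuclei, because they were shallow and no marker led them. Between 44 and 63 barcodes of a library were shared with another library. The Cre transcript was counted with 415 and 0 UMIs in the Sel1L fl/fl libraries and with 233 and 219 in the Sel1L SynCre libraries. The library labelled Sel1L fl/fl replicate 1 therefore carried Cre RNA against its label, and each call of a member, and the count of calls of each list, is also given without it. Leaving it out sets 1 Sel1L fl/fl library against 2. The spread then comes from the Sel1L SynCre libraries, and the lone library is assumed to vary like them. By Ddx3y and Xist RNA the library left out is from a male and the lone one from a female. Sel1l itself stood at 96.9 and 90.1 CPM (the usual scaling of a gene's UMIs to the UMIs of all genes in the nuclei summed) in the Sel1L fl/fl pair and at 155 and 128 in the Sel1L SynCre pair. These are counts near the 3′ end, and the deleted part of the gene was not looked at, so they do not check the deletion.

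The promoters of Cdkn1a and of 3 other members hold letters that match the p53 half-site, the short element that p53 binds in pairs, and they are shown because Cdkn1a was called in several classes and the other 3 in none. The windows run from 250 bases before a RefSeq start to 50 after it (GRCm38.p6), and 12 windows of 8 of the 10 genes were searched. No window of Pmaip1 or Tnfrsf10b was searched, so the counts of matches below say nothing of these 2 promoters. Both strands were searched for the p53 half-site, and no match overlapped the other motif searched. It was found in 4 windows of 4 members, and 8.36% of all 32851 windows of this length hold it. Capitals mark the matches, which are a description of letters and not bound sites. Cdkn1a has 2 windows. The one shown lies at chr17:29090729-29091028 on the plus strand, with matches beginning at -73 and -51 from its own start. The other, at chr17:29093519-29093818, is not shown and holds no match. The Mdm2 window is chr10:117710709-117711008 on the minus strand, with a match at -186. The Ccng1 window is chr11:40755237-40755536 on the minus strand, with a match at -185. The Bax window is chr7:45466849-45467148 on the minus strand, with a match at -201. Bcl2l11 also has 2 windows. The one at chr2:128125788-128126087 on the plus strand is shown because the gene is 1 of the 2 members with a call. Neither of its windows holds a match.
Cdkn1a: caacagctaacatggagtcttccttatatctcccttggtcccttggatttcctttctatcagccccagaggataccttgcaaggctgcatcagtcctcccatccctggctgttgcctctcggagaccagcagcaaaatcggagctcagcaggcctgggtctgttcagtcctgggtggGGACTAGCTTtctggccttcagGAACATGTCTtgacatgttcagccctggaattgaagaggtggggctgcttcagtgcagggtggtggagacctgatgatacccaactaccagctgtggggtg
Mdm2: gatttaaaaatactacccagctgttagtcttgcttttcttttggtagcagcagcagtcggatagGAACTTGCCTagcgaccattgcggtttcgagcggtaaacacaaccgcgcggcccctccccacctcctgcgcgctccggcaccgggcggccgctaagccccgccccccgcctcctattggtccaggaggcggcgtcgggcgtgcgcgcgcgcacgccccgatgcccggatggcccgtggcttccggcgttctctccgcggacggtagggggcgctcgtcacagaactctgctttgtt
Ccng1: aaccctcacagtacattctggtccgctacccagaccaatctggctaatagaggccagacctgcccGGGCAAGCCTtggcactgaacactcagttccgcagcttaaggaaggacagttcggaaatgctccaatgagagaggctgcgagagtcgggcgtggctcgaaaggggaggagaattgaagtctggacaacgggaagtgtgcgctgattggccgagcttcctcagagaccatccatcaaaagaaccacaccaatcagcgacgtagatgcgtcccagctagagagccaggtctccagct
Bax: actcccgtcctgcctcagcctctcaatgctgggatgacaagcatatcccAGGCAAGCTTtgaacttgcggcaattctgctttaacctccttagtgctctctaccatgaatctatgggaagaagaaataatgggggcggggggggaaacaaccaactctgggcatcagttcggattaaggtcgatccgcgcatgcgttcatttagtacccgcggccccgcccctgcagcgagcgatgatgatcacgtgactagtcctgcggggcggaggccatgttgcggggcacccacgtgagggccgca
Bcl2l11: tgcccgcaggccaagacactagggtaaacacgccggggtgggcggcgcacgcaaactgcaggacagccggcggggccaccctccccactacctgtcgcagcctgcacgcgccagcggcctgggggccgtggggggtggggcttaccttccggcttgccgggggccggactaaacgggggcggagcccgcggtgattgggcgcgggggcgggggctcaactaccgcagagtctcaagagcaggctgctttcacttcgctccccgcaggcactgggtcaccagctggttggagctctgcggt
The core of the composite C/EBP and ATF element, TGATGNAA on either strand, was in 0 of the 12 windows and in 3.97% of all windows. No match says only that these letters are not in these windows.

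Cdkn1a was the member with the most calls. It was higher in Sel1L SynCre in Sst-, Pvalb- and L4/5 IT-like neurons, and also in oligodendrocyte- and OPC-like nuclei. Bcl2l11 was higher in Pvalb-like neurons. In Sst-, Pvalb-, oligodendrocyte- and OPC-like nuclei Cdkn1a passed the filter on low counts only through the Sel1L SynCre libraries, so that it had to differ there to be tested. With no filter on low counts, where every gene with a UMI is tested, it was called in these 4 classes too. The adjusted p (edgeR) was 0.000145, 3.85e-06, 1.59e-25 and 7.62e-07. These rest on the same few UMIs, so they are not further evidence. What they owe to a spread estimated over many genes with few UMIs was not tested. No member was called lower in any class. Of 190 gene-by-class pairs, 89 had enough UMIs to test and 6 were called at an adjusted p below 0.05, while over all genes 1.72% of 227660 such tests were called (edgeR quasi-likelihood F test on counts summed per library and class, Benjamini-Hochberg over all genes tested in the class). The members that passed the filter on low counts are not all members: Tnfrsf10b, Eda2r and Pmaip1 passed it in no single class.

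**Figure D1:**
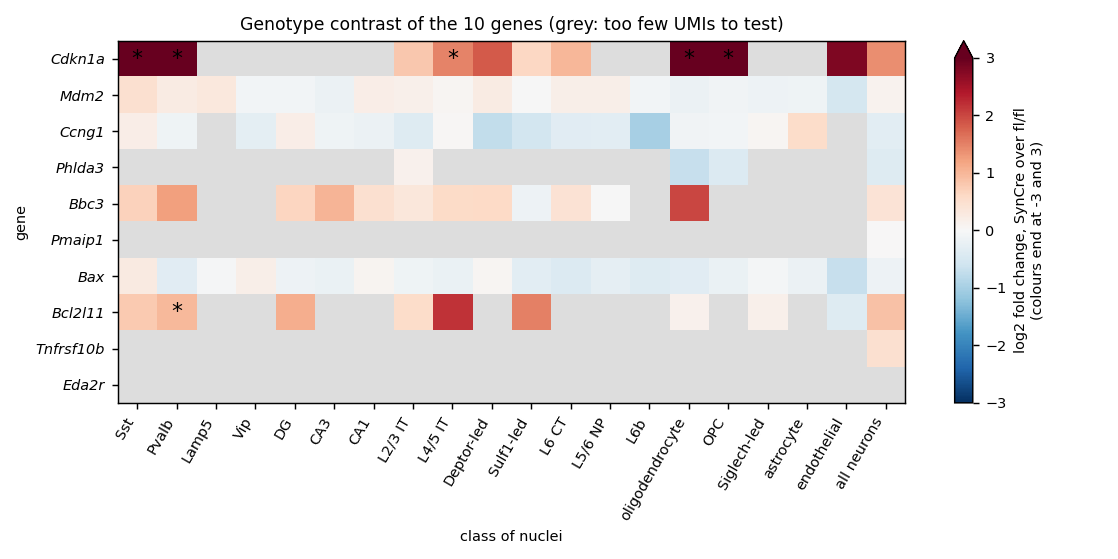
Log2 fold change of Sel1L SynCre over Sel1L fl/fl (colour) for each of the 10 genes (rows) in each class of nuclei and in all neuron-like nuclei (columns). Grey cells had too few UMIs to test and asterisks mark an adjusted p below 0.05. The 5 asterisks of Cdkn1a and the 1 of Bcl2l11 are all on cells above 0, and the rows of Mdm2, Ccng1 and Bax hold values of both signs and no asterisk.

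Cdkn1a encodes p21, the cyclin-dependent kinase inhibitor by which p53 halts the cell cycle. The gene lies at chr17:29090976-29100727 on the plus strand (GENCODE vM21), and an exon of AC167363.2 on the other strand overlaps one of its exons. Whether the counting used strand or introns is not given in the sources used here, so reads of the overlap cannot be told apart. In Sst-like neurons (751 nuclei, interneurons that make somatostatin) it had 0 and 1 UMIs in the Sel1L fl/fl libraries and 10 and 12 in the Sel1L SynCre libraries, which is 0 and 0.540 against 5.47 and 7.53 CPM. The groups did not overlap. The ratio of the summed counts was 30.3, with a counting interval of 4.89 to 1248. The fitted log2 fold change was 4.48 ± 0.89 (SE, n = 2 mice per group) with an adjusted p of 0.00185 in edgeR. Throughout, SE is the log2 fold change without its sign over the square root of the F statistic, not a separate estimate. With so few UMIs it is narrower than the counting interval. Here 1 of 6 members tested was called, against 9.24% of all genes tested. Leaving out Sel1L fl/fl replicate 1, the library that carried Cre RNA, the log2 fold change was 3.36 and the adjusted p 0.101, and DESeq2 gave an adjusted p of 0.0758.

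In Pvalb-like neurons (954 nuclei, fast-spiking interneurons that make parvalbumin) Cdkn1a had 4 and 2 UMIs in Sel1L fl/fl and 26 and 17 in Sel1L SynCre, or 1.10 and 0.828 against 10.7 and 6.87 CPM. Both Sel1L SynCre libraries stood above both others. The log2 fold change was 3.01 ± 0.55 (SE) with an adjusted p of 0.00707 (edgeR). In this subtype 2 of 6 members tested were called, against 4.32% of all genes. The call held without the Sel1L fl/fl library that carried Cre RNA (3.28, adjusted p 0.0161) and was lost without Sel1L SynCre replicate 1 (2.66, adjusted p 0.159).

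In L4/5 IT-like neurons (2455 nuclei, excitatory neurons of cortical layers 4 and 5) the Cdkn1a counts were 22 and 15 UMIs in Sel1L fl/fl and 39 and 49 in Sel1L SynCre, or 2.40 and 2.20 against 7.05 and 6.52 CPM. The groups were apart, and here the gene passed the filter without help from either group. The log2 fold change was 1.49 ± 0.32 (SE) with an adjusted p of 0.0496 (edgeR), for 1 of 6 members tested against 1.55% of all genes. The value lies at the edge of the threshold: it was 0.0518 without the Sel1L fl/fl library that carried Cre RNA and between 0.0518 and 0.107 without any 1 library, and DESeq2 made no call, with log2 fold changes of 1.40 to 1.60 over these fits.

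In the other 11 subtypes no member was called by edgeR or by DESeq2. At an unadjusted p below 0.05 (edgeR) there were 2 of 5 members tested in DG-like, 2 of 5 in Deptor-led and 2 of 5 in L6 CT-like neurons. There was 1 of 6 in Sulf1-led neurons, and 0 in each of the other 7. Over all genes tested, 2145 of 13058 in DG-like and 1384 of 13110 in Deptor-led neurons had such a p. So had 1647 of 13529 in L6 CT-like and 1243 of 12698 in Sulf1-led neurons. At an adjusted p below 0.05, 3.59% of all genes tested were called in DG-, 1.07% in Lamp5-, 0.702% in L6 CT-, 0.685% in Sulf1-led, 0.313% in Deptor-led and 0.276% in L2/3 IT-like neurons. The shares were 0.15% in L6b-, 0.102% in L5/6 NP-, 0.0328% in CA3-, 0.0262% in Vip- and 0.00775% in CA1-like neurons.

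Lamp5-like neurons (448 nuclei) are a subtype in which stress genes were called and Cdkn1a was not seen. It had 0 UMIs in all 4 libraries there, in 101 to 135 nuclei each, which allows a share of nuclei with a UMI of up to 2.22% to 2.97% per library (counting error only). In the same libraries Derl3, an ER-associated degradation factor induced by the unfolded protein response, had 0 and 0 UMIs in Sel1L fl/fl and 56 and 33 in Sel1L SynCre, and Cre RNA was counted with 20 and 0 against 9 and 9 UMIs. In CA1-like neurons Cdkn1a had 1 and 1 against 3 and 1 UMIs, and Sel1l did not separate the groups (116 and 107 against 115 and 103 CPM). In Vip-like neurons it had 4 and 2 against 2 and 6 UMIs, with overlapping CPM. In DG-like neurons, the granule cells of the dentate gyrus, it had 3 and 1 against 11 and 2 UMIs, too few to test.

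Over the 13 subtypes with any Cdkn1a UMI, both Sel1L SynCre libraries stood above both Sel1L fl/fl libraries in 10, below in 0, and the groups overlapped in 3. Of all gene-by-subtype pairs, 21.6% lay above and 13.9% below in this way. The subtypes come from the same 4 mice, so these are not independent observations. Summed over all neuron-like nuclei, Cdkn1a had 131 and 71 UMIs in Sel1L fl/fl against 206 and 244 in Sel1L SynCre, or 1.48 and 1.16 against 3.43 and 3.92 CPM. The groups were apart, with a log2 fold change of 1.40 ± 0.23 (SE) and an adjusted p of 0.0829 in edgeR. In this sum 0 of 9 members tested were called by edgeR, DESeq2 called 2, and edgeR called 0.139% of all genes. At an unadjusted p below 0.05 (edgeR) there were 4 members, and 2567 of all 20206 genes tested. Without the Sel1L fl/fl library that carried Cre RNA the Cdkn1a value became 1.63 with an adjusted p of 0.0422.

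**Figure D2:**
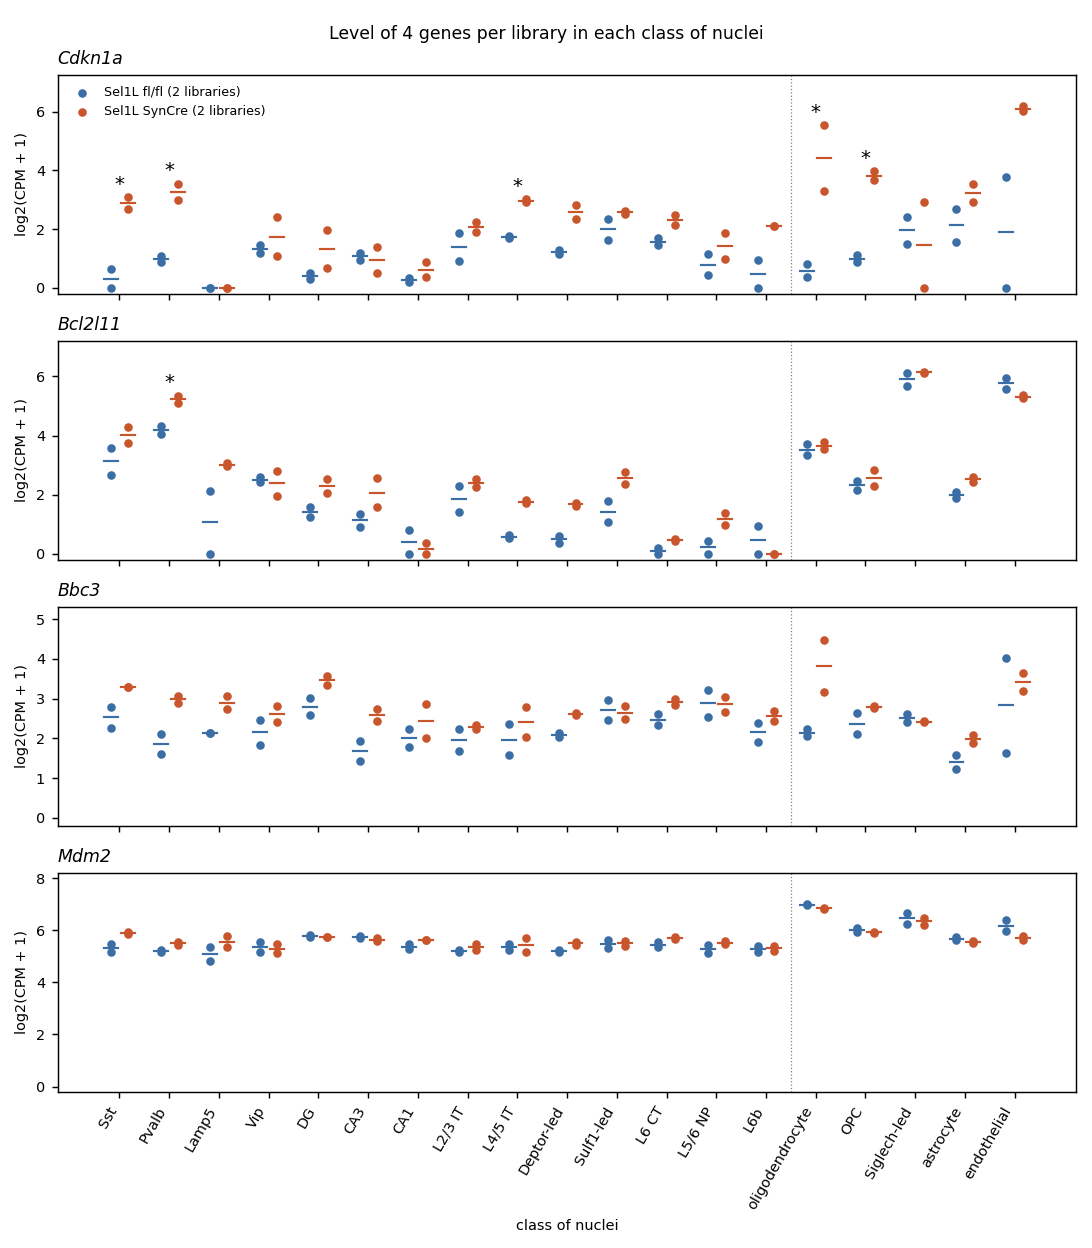
Level of Cdkn1a, Bcl2l11, Bbc3 and Mdm2 on a log2(CPM + 1) scale (y axis) in each class of nuclei (x axis), with 1 point per library, bars at the mean of the 2 libraries of a group, and asterisks at an adjusted p below 0.05. The dotted line separates the 14 neuron subtypes from the 5 other classes. Cdkn1a stays at 0 in Lamp5-like neurons, Bcl2l11 is high in Siglech-led and endothelial-like nuclei of both groups, and Mdm2 is highest in oligodendrocyte-like nuclei.

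Cdkn1a was also called outside neurons. In oligodendrocyte-like nuclei (3743, myelinating glia) it had 5 and 1 UMIs in Sel1L fl/fl and 10 and 47 in Sel1L SynCre, or 0.738 and 0.287 against 8.92 and 45.6 CPM. Both Sel1L SynCre libraries were above the others, and replicate 2 was far above replicate 1. The log2 fold change was 5.40 ± 0.78 (SE) with an adjusted p of 0.0183 (edgeR). In this class 1 of 7 members tested was called, against 0.863% of all genes. Without Sel1L SynCre replicate 2 the value was 3.90 with an adjusted p of 0.103, and without the Sel1L fl/fl library that carried Cre RNA it was 6.21 with an adjusted p of 6.23e-12. The class had 1847 and 1173 nuclei in Sel1L fl/fl and 358 and 365 in Sel1L SynCre. Cre RNA was counted there with 2 and 0 against 0 and 0 UMIs, while Sel1l stood at 112 and 105 against 300 and 184 CPM. The summed neuron markers in these nuclei were 363 and 276 against 276 and 323 CPM, overlapping between the groups. The summed oligodendrocyte markers were 19009 and 17930 against 17110 and 14428 CPM, with 5 of 6 lower in both Sel1L SynCre libraries and 1 higher, and their part in the result was not tested.

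In OPC-like nuclei (1467, oligodendrocyte precursor cells) Cdkn1a had 2 and 2 UMIs in Sel1L fl/fl and 17 and 12 in Sel1L SynCre, or 0.825 and 1.15 against 14.7 and 11.7 CPM. The groups did not overlap. The log2 fold change was 3.66 ± 0.63 (SE) with an adjusted p of 6.65e-05 (edgeR), and 1 of 5 members tested was called against 8.6% of all genes. The gene was left untested with at least 10 counts required in every library and with thinned sums. Its adjusted p was at most 0.0437 in the 12 alternatives that did test it, and without the Sel1L fl/fl library that carried Cre RNA it was 3.44 with an adjusted p of 0.0191. Cre RNA was counted in these nuclei with 32 and 0 against 20 and 12 UMIs, although the promoter is directed to neurons, and Sel1l stood at 123 and 93.8 against 423 and 184 CPM. The summed oligodendrocyte markers moved with the genotype in these nuclei, at 4262 and 2745 against 111 and 222 CPM. All 6 of them were lower in both Sel1L SynCre libraries and none was at 0, and their part in the result was not tested.

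In endothelial-like nuclei (634) Cdkn1a reached its highest level of any class, with 6 and 0 UMIs in Sel1L fl/fl against 44 and 27 in Sel1L SynCre, or 12.7 and 0 against 63.8 and 72.5 CPM. The groups were apart, but the log2 fold change of 2.79 ± 0.60 (SE) had an adjusted p of 0.307 in edgeR. Here too the gene passed the filter on low counts only through the Sel1L SynCre libraries. In that class 0 of 4 members were called by edgeR and 0 by DESeq2, and 0% of all genes were called. At an unadjusted p below 0.05 (edgeR) there was 1 member, and 527 of all 8284 genes tested. Without Sel1L SynCre replicate 1 it was 2.87 with an adjusted p of 0.0120, without Sel1L fl/fl replicate 1 it was 7.76 with an adjusted p of 0.362, against a single library at 0, so that this value is set by the prior count. The Sel1L fl/fl libraries held 199 and 61 nuclei there. Summed endothelial markers stood at 2898 and 3981 against 3001 and 2396 CPM in this class. Summed mural or fibroblast markers stood at 1099 and 1485 against 1235 and 978 CPM. No cluster was named after the latter, so endothelial and other vascular nuclei were not separated. Cre RNA was at 0 and 0 against 0 and 1 UMIs, and Sel1l at 84.4 and 84.2 against 110 and 83.3 CPM. Of 6 astrocyte markers 4 were higher there in both Sel1L SynCre libraries, at 626 and 1248 against 1145 and 1262 CPM in sum, and of 6 oligodendrocyte markers 4 were lower, at 681 and 528 against 319 and 212 CPM. None of these markers was at 0, and their part in the result was not tested. In astrocyte-like nuclei Cdkn1a had 3 and 4 against 18 and 12 UMIs, too few to test, and 0 of 3 members tested were called against 0.74% of all genes. In Siglech-led nuclei it had 3 and 5 against 6 and 0 UMIs, and 0 of 4 members tested were called against 0.0468% of all genes. DESeq2 called 0 members in both classes.

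The shares of nuclei with a Cdkn1a UMI depend on depth as well as level, so they do not count expressing nuclei. A UMI was seen in 1.35% and 0.905% of Pvalb-like nuclei in Sel1L fl/fl and in 10.7% (95% Wilson interval 7.31 to 15.5) and 7.98% (5.04 to 12.4) in Sel1L SynCre. In oligodendrocyte-like nuclei the shares were 0.271% and 0.0853% against 2.51% (1.33 to 4.71) and 10.4% (7.68 to 13.97). In OPC-like nuclei they were 0.389% and 0.474% against 5.26% (3.21 to 8.50) and 4.47% (2.52 to 7.83). For scale, CA1-like nuclei had 0.189% and 0.334% against 1.05% and 0.355%, at a median of 11989.5 UMIs per nucleus, deeper than the 10328.5 of Pvalb-like, 3911 of OPC-like and 2924 of oligodendrocyte-like nuclei. The shares of oligodendrocyte- and OPC-like nuclei in Sel1L fl/fl overlapped in their intervals with those of CA1-like nuclei. Depth differed, and the mean Sel1L fl/fl level was 0.513 CPM in oligodendrocyte-like, 0.988 in OPC-like and 0.190 in CA1-like nuclei, each from at most 6 UMIs, so expression cannot be told apart from free RNA there. The intervals cover counting error only.

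Thinning to 2000 UMIs, here and below, was done on nuclei with at least that many UMIs, and shallower nuclei were left out. The thinned shares thus describe the deeper nuclei of a class. In Pvalb-like nuclei they were 0.339% and 0.454% against 4.51% and 2.36%, and the groups stayed apart. They stayed apart in oligodendrocyte-like nuclei too, at 0.180% and 0.112% against 2.12% and 7.22%, and in OPC-like nuclei, at 0.394% and 0.506% against 2.56% and 2.95%. In Sst-like nuclei the thinned shares were 0% and 0% against 0% and 2.60%, and in L4/5 IT-like nuclei 0.590% and 0.470% against 0.417% and 0.916%, with no separation at that depth. No nucleus of these 5 classes held more than 5 Cdkn1a UMIs.

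**Figure D3:**
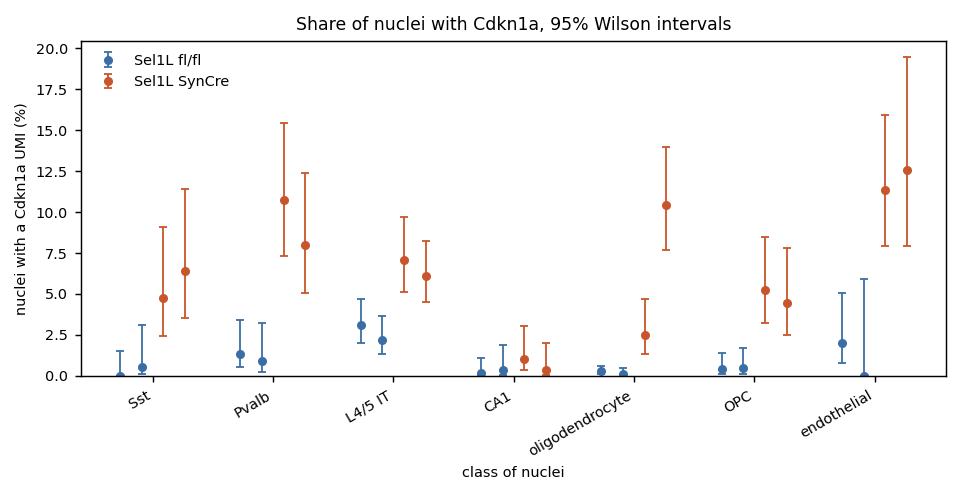
Share of nuclei with at least 1 Cdkn1a UMI in percent (y axis) for 7 classes (x axis), with the 4 libraries as points from left to right, replicate 1 before replicate 2 and Sel1L fl/fl before Sel1L SynCre, and 95% Wilson intervals for counting error. The Sel1L SynCre points of Pvalb-like nuclei lie at 10.7% and 7.98%, those of CA1-like nuclei at 1.05% and 0.355%, and the 2 oligodendrocyte-like Sel1L SynCre points are far from each other.

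The nuclei of the Sel1L SynCre libraries were then separated by whether they held a UMI of Derl3, as a description with no test. In Sst-like neurons Cdkn1a stood at 3.54 CPM in nuclei with Derl3 and 8.59 without it in Sel1L SynCre replicate 1, and at 3.72 and 11.4 in replicate 2. In Pvalb-like neurons it stood at 11.2 with and 10.1 without Derl3 in replicate 1, and at 3.75 and 9.24 in replicate 2. In DG-like neurons the values were 2.03 and 3.46, and 0 and 0.782. Both Sel1L SynCre libraries together held 22 Cdkn1a UMIs in Sst-, 43 in Pvalb- and 13 in DG-like neurons, so these values rest on few counts. Cdkn1a was thus higher in nuclei without Derl3 in 5 of 6 subtype-by-library pairs, and in 3 of 6 after thinning to 2000 UMIs, where 2 pairs held no Cdkn1a UMI on either side. In L4/5 IT-like neurons the order was the other way, at 8.36 with and 6.85 without in replicate 1 and at 14.9 and 5.51 in replicate 2. Bcl2l11 in Pvalb-like neurons was higher in nuclei with Derl3, at 39.1 against 25.2 CPM in replicate 1 and at 57.2 against 26.3 in replicate 2, but after thinning the values were 16.1 against 31.4 and 45.5 against 44.7. Nuclei with Derl3 had medians of 10466 and 11607 UMIs in that subtype and nuclei without it 8988 and 10388.5, so depth differed between the sides.

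Nuclei with a Cdkn1a UMI were also counted for UMIs of other genes. In Pvalb-like nuclei of Sel1L SynCre, 24 of 224 nuclei of replicate 1 and 17 of 213 of replicate 2 held a Cdkn1a UMI, and Bcl2l11 was seen in 5 of these 24 and in 3 of these 17. Over all nuclei of the same libraries Bcl2l11 was seen in 58 and 55. Ddit3, which encodes the stress factor CHOP, was seen in 14 of the 24 and in 7 of the 17, and in 122 and 96 of all these nuclei. In Sst-like nuclei of Sel1L SynCre, Bcl2l11 was seen in 0 of 8 and in 1 of 10 nuclei with Cdkn1a. These are counts of few nuclei, and no test was made of them.

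The other p53 targets gave no call. Mdm2, the ubiquitin ligase that degrades p53, had adjusted p of at least 0.112 in all 14 subtypes, with log2 fold changes of -0.17 to 0.49. Its largest value was in Sst-like neurons, at 43.1 and 34.6 CPM in Sel1L fl/fl against 60.7 and 56.5 in Sel1L SynCre (0.49 ± 0.19, SE, adjusted p 0.112 in edgeR). Both Sel1L SynCre libraries were above both others in 8 of 14 subtypes and below in 0, where 21.6% of all gene-by-subtype pairs lay above and 13.9% below. Over all neuron-like nuclei it stood at 42.1 and 38.9 against 43.0 and 47.6 CPM, a log2 fold change of 0.10 ± 0.10 (SE).

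Ccng1, which encodes cyclin G1 and is a p53 target in many tissues, had log2 fold changes of -0.99 to 0.19 in the 13 subtypes tested, with adjusted p of at least 0.139. In Deptor-led neurons it stood at 23.5 and 24.8 CPM against 15.6 and 14.4 (-0.74 ± 0.20, SE, adjusted p 0.139 in edgeR). The groups were apart there, with the Sel1L SynCre libraries lower, as in 5 of 14 subtypes, while they were higher in 1. Of all gene-by-subtype pairs, 13.9% lay below and 21.6% above in this way. In astrocyte-like nuclei the order was the other way, at 17.1 and 17.5 against 25.02 and 26.6 CPM (adjusted p 0.500).

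Phlda3, a p53-induced repressor of AKT signalling, had so few UMIs in neurons that it was tested in 1 subtype only, L2/3 IT-like neurons (0.13 ± 0.50, SE). Its highest level was in oligodendrocyte-like nuclei, where it stood at 51.5 and 39.6 CPM in Sel1L fl/fl and 31.2 and 26.2 in Sel1L SynCre. The groups were apart, with a log2 fold change of -0.70 ± 0.23 (SE) and an adjusted p of 0.285 (edgeR), opposite in sign to Cdkn1a in the same nuclei.

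Of the BH3-only genes, Bcl2l11, which encodes BIM, gave a call. In Pvalb-like neurons it had 69 and 38 UMIs in Sel1L fl/fl and 81 and 98 in Sel1L SynCre, or 19.0 and 15.7 against 33.4 and 39.6 CPM. Both Sel1L SynCre libraries were above both others. The log2 fold change was 0.98 ± 0.21 (SE) with an adjusted p of 0.0207 (edgeR). It held without the Sel1L fl/fl library that carried Cre RNA (1.16, adjusted p 0.00830), and it was lost without Sel1L SynCre replicate 2 (0.84, adjusted p 0.0841) and in DESeq2 (adjusted p 0.122). A UMI was seen in 15.9% and 14.03% of these nuclei in Sel1L fl/fl and in 25.9% and 25.8% in Sel1L SynCre.

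In L4/5 IT-like neurons Bcl2l11 had 5 and 3 UMIs against 14 and 17. Its log2 fold change was 2.16 ± 0.52 (SE) with an adjusted p of 0.0792 (edgeR). There it passed the filter on low counts only through the Sel1L SynCre libraries, so that it had to differ to be tested. In Sst-like neurons it stood at 10.9 and 5.40 against 18.6 and 12.5 CPM (0.78 ± 0.37, SE, adjusted p 0.219). In Lamp5-like neurons, where Cdkn1a was at 0, it had 0 and 3 against 6 and 7 UMIs, too few to test. The groups were apart in 10 of 14 subtypes, all with Sel1L SynCre higher (21.6% of all pairs lay above and 13.9% below), and over all neuron-like nuclei the levels were 2.89 and 2.27 against 4.96 and 5.00 CPM (0.88 ± 0.20, SE, adjusted p 0.152 in edgeR, 0.0221 in DESeq2). Outside neurons it stood at 68.7 and 50.7 against 70.0 and 68.4 CPM in Siglech-led nuclei, with overlapping groups, and at 46.4 and 61.3 against 37.7 and 40.3 CPM in endothelial-like nuclei.

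Bbc3, which encodes PUMA, was higher in both Sel1L SynCre libraries in 9 of 14 subtypes and lower in 0 (21.6% and 13.9% of all pairs), and was called in none. Its log2 fold changes ran from -0.15 to 1.22 in 11 subtypes, with adjusted p of at least 0.169. The largest was in Pvalb-like neurons, at 3.31 and 2.07 against 7.42 and 6.47 CPM (1.22 ± 0.45, SE, adjusted p 0.169 in edgeR). In DG-like neurons it stood at 7.04 and 5.03 against 10.8 and 9.18 CPM (0.64 ± 0.29, SE, adjusted p 0.300). In oligodendrocyte-like nuclei it stood at 3.69 and 3.16 against 8.03 and 21.4 CPM (2.02 ± 0.47, SE, adjusted p 0.110 in edgeR). Sel1L SynCre replicate 2 was far above replicate 1 there, as for Cdkn1a. In these nuclei and in Pvalb-like neurons Bbc3 passed the filter on low counts only through the Sel1L SynCre libraries. Pmaip1, which encodes NOXA, had 31 and 17 against 23 and 18 UMIs in the whole libraries and 0 UMIs in Pvalb-, Lamp5-, CA3- and L6b-like neurons, so nothing can be said of it at this depth. Over all neuron-like nuclei its log2 fold change was 0.00 ± 0.44 (SE).

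Bax, the effector that BH3-only proteins release, gave no call. It stood at 20.8 and 21.8 CPM in Sel1L fl/fl and 19.6 and 20.6 in Sel1L SynCre over all neuron-like nuclei, a log2 fold change of -0.14 ± 0.09 (SE, adjusted p 0.571 in edgeR). In single subtypes the values ran from -0.40 to 0.28, with adjusted p of at least 0.393. In Pvalb-like neurons, where Bcl2l11 was higher, it was at 26.2 and 24.8 against 23.9 and 18.6 CPM (-0.34 ± 0.22, SE). Bax shares its strand with the overlapping gene Gm45808, which is not analysed here.

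The death receptors among the members were at the limit of detection. Tnfrsf10b, the mouse receptor for the ligand TRAIL, had 22 and 24 UMIs in Sel1L fl/fl and 24 and 28 in Sel1L SynCre over the whole libraries, and 0.47 ± 0.48 (SE) as log2 fold change over all neuron-like nuclei. The groups overlapped in 11 of the 13 subtypes with a UMI, and Sel1L SynCre was higher in 2 and lower in 0. Of all gene-by-subtype pairs, 21.6% lay above and 13.9% below. Eda2r, a p53-induced receptor for the ligand EDA-A2, had 38 and 22 against 23 and 14 UMIs and was seen in 6 subtypes. Its highest level was in OPC-like nuclei, at 5.36 and 6.33 against 4.33 and 2.92 CPM, too few UMIs to test.

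The subtypes were compared directly with CA1-like neurons in 1 model with the library as a block. No member differed in its genotype contrast between Sst-, Pvalb-, Lamp5-, DG- or L4/5 IT-like neurons and CA1-like neurons by edgeR (0 members at an unadjusted p below 0.05) or by DESeq2. Of all genes tested, 3.7% differed for Sst-, 2.07% for Pvalb-, 0.441% for Lamp5-, 2.84% for DG- and 0.482% for L4/5 IT-like neurons. For Cdkn1a the difference was 3.23 ± 2.18 on the log2 scale (SE, adjusted p 0.554) in Sst- and 1.60 ± 1.73 (SE, adjusted p 0.806) in Pvalb-like neurons. With 2 and 4 UMIs in the 2 groups of CA1-like neurons, these standard errors do not allow the rise to be called particular to any subtype.

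The order of levels over classes was described with both groups together. Mdm2 was highest in oligodendrocyte-like nuclei, at 111 to 128 CPM over the 4 libraries, and this was the 1 member whose highest class did not overlap any other class. The next was the Siglech-led class, at 73.4 to 101 CPM, which overlapped with the endothelial-like class below it. Bcl2l11 was highest in Siglech-led nuclei (50.7 to 70.0 CPM) and endothelial-like nuclei (37.7 to 61.3 CPM), which overlapped. Phlda3 was highest in oligodendrocyte-like nuclei, overlapping with endothelial-like nuclei, and Ccng1 in astrocyte-like nuclei, overlapping with the classes below. In Sel1L fl/fl alone Ccng1 was higher in Deptor-led (24.2 CPM) than in astrocyte-like nuclei (17.3 CPM). The levels of Cdkn1a, Bbc3, Pmaip1, Bax and Tnfrsf10b were highest in endothelial-like nuclei, again with overlap and, for Bax and Bbc3, not in Sel1L SynCre alone, in pseudobulks of only 130609 to 690063 UMIs.

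The other genes of these pathways were followed in 5 lists, none of which was tested as a set. Some of their genes passed the filter on low counts only through the Sel1L SynCre libraries, so that they had to differ to be tested. The counts of higher calls and the medians of the lists can thus in part be fixed by the filter. Of 21 other p53 pathway genes, 228 gene-by-subtype pairs were tested in the 14 subtypes, 7 were called higher and 0 lower (3 by DESeq2), and the medians of the list ran from -0.00 to 0.24 per subtype. For comparison, the median over all genes tested was 0.01 in Sst- and 0.01 in Pvalb-like neurons, where the 6 members tested had medians of 0.59 and 0.61. These medians hold Cdkn1a and, in Pvalb-like neurons, also Bbc3. Both had to differ there to be tested, so the gap is in part fixed by the filter. The calls included Sesn2 and Plk2. Sesn2, a sestrin that restrains mTORC1 and is also an ATF4 target, stood in Sst-like neurons at 3.72 and 5.52 against 22.8 and 23.2 CPM (TMM-scaled, log2 fold change 2.35 ± 0.35, SE, adjusted p 0.000133 in edgeR). Plk2, a polo-like kinase that neurons also induce with activity, stood at 26.4 and 33.1 against 70.4 and 80.1 CPM (1.35 ± 0.19, SE). In Pvalb-like neurons their log2 fold changes were 1.28 and 1.03, both called. Without the Sel1L fl/fl library that carried Cre RNA 4 of the 7 calls were kept, and Sesn2 in Pvalb-like neurons was lost (1.08, adjusted p 0.0793 in edgeR). Trp53 itself, named here after its values were seen, was not called, at 15.6 and 13.8 against 17.9 and 17.7 CPM in Sst-like neurons (0.26 ± 0.29, SE).

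In OPC-like nuclei 3 of 17 tested genes of this list were called, all higher: Sesn2, Plk2 and Gdf15, the last a stress cytokine with 0 CPM in both Sel1L fl/fl libraries. Gdf15 thus passed the filter on low counts only through the Sel1L SynCre libraries. Plk2 was lost without the Sel1L fl/fl library that carried Cre RNA (0.72, adjusted p 0.123 in edgeR). In oligodendrocyte-like nuclei, where Cdkn1a was higher, 0 of 16 were called. The list of the PERK arm had the most calls: of its 12 stress genes, 32 of 108 pairs were called higher and 0 lower (24 by DESeq2), with medians of -0.16 to 1.86. In Sst-like neurons 10 of 11 were called and in Pvalb-like neurons 6 of 11. Ddit3 stood in Sst-like neurons at 7.81 and 8.84 against 87.8 and 69.7 CPM (TMM-scaled, 3.25 ± 0.23, SE) and was called in 7 subtypes. Derl3, in the list as a gene induced by the unfolded protein response in general, was called in 9 subtypes. In Sst-like neurons it had 0 and 0 UMIs in Sel1L fl/fl against 189 and 121. It passed the filter on low counts there only through the Sel1L SynCre libraries. It gave the only call of the list in CA3- and L5/6 NP-like neurons, where 0.0328% and 0.102% of all genes were called. Which arm of the response its calls reflect was not tested. Nupr1, a stress-induced chromatin protein, was called in 2 (2.78 in Sst- and 2.11 in Pvalb-like neurons). In CA1-like neurons 0 of 7 were called, and in OPC- and oligodendrocyte-like nuclei 4 of 8 and 4 of 9. Without the Sel1L fl/fl library that carried Cre RNA 26 of the 32 neuron calls and all 4 and 4 of the glial calls were kept.

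Of 16 caspase and execution genes, 0 of 175 pairs were called by edgeR or DESeq2, with 10 at an unadjusted p below 0.05, of which 4 were higher. Over all genes 1.57% of the tests in these 14 subtypes were called and 12.2% had an unadjusted p below 0.05. The medians ran from -0.21 to 0.11. Apaf1, the scaffold of the apoptosome, stood in Pvalb-like neurons at 25.8 and 26.9 against 26.0 and 29.4 CPM (TMM-scaled, 0.07 ± 0.20, SE, adjusted p 0.909 in edgeR), and was chosen after its values were seen. Of 13 other BCL2 family genes, 0 of 111 pairs were called by either tool in neurons, with 15 at an unadjusted p below 0.05, and the medians ran from -0.43 to 0.28. In OPC-like nuclei Bcl2, which keeps BAX in check, was called higher, its name chosen after its value was seen, at 47.0 and 49.4 against 84.4 and 63.3 CPM (TMM-scaled, 0.62 ± 0.20, SE, adjusted p 0.0471 in edgeR), a call that was lost without the Sel1L fl/fl library that carried Cre RNA.

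Of 12 death receptor and adaptor genes, 67 pairs were tested, 3 were called higher and 3 lower, with medians of -0.12 to 0.34. The 3 higher calls were Cflar, the inhibitor of caspase 8 also called FLIP, in Sst- (1.97), Pvalb- (2.75) and DG-like neurons (1.06). In Pvalb-like neurons Cflar stood at 1.74 and 1.68 against 14.6 and 9.13 CPM (TMM-scaled). There it passed the filter on low counts only through the Sel1L SynCre libraries. The 3 lower calls were Eda, whose product includes the ligand of Eda2r, in L4/5 IT-like (-0.86), Deptor-led (-1.07) and Sulf1-led neurons (-1.26). In Sulf1-led neurons it stood at 47.6 and 35.8 against 16.5 and 18.5 CPM (TMM-scaled). Without the Sel1L fl/fl library that carried Cre RNA 5 of these 6 calls were kept, and Cflar in DG-like neurons was lost (0.97, adjusted p 0.153 in edgeR).

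**Figure D4:**
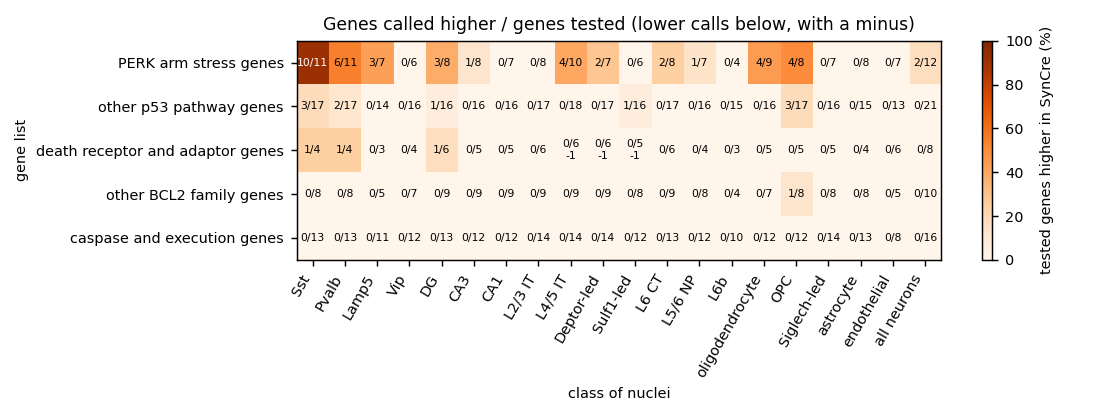
Genes called higher in Sel1L SynCre over genes tested (numbers in the cells; a second number with a minus counts genes called lower) for 5 lists (rows) in each class of nuclei and in all neuron-like nuclei (columns), with the colour giving the percentage called higher. The PERK arm row, which includes Derl3, reaches 10 of 11 in Sst-like neurons, and the caspase row is 0 in every column.

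The genes whose level was most like that of the called members were found over 56 neuron pseudobulks, 14 subtypes in 4 libraries, among 11858 genes with a mean of at least 5 CPM. For Cdkn1a the 3 highest Pearson correlations of log2(CPM + 1) were 0.71 for 1700016P03Rik, 0.63 for Plag1 and 0.62 for Ndfip2. For Bcl2l11 they were 0.84 for Gm15614, 0.81 for Kcnc1 and 0.80 for Adat1. The points share libraries and differ in depth, and the correlations mix subtype and genotype.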

How the data were processed

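The deposited tables hold raw UMI counts per gene and barcode in 4 libraries of nuclei sorted by propidium iodide and prepared with 10x 3′ chemistry. The authors made these counts with Cell Ranger 6.1.0 on GRCm38, per the submitters' processing notes. Nuclei with more than 600 genes and under 5% mitochondrial UMIs were kept. Scrublet scored them as doublets, and the nuclei with the highest scores were removed. The share removed was set in advance and grew with the barcodes of a library (5.89% to 10.1% of its nuclei). Clusters came from Seurat 5.3.0 (2000 variable features, 17 dimensions, resolution 0.2, and 0.4 for neurons), since no deposited cell annotation was used. Counts were summed per library and class and tested in edgeR 4.0.16 (quasi-likelihood F test, TMM, filterByExpr, prior count 0.125, R 4.3.3), two-sided, with Benjamini-Hochberg adjustment over all genes tested in a class and a threshold of 0.05. DESeq2 1.42.0, other filters and scalings, thinning, doublets kept, clustering without integration and leaving out each library were alternatives. Of these steps, only the edgeR fit per class was tested on simulated data, in some of the classes. All 10 members and every list were chosen with earlier results of these data known. All 10 are named. List genes are named where called in at least 2 neuron subtypes, at most 3 a list, unless said otherwise. Each library is 1 mouse, so p-values rest on the spread between 2 animals of a group, which differ in sex. They also rest on a spread that edgeR borrows from all genes tested, so they do not measure a gene's own spread alone. Nuclei shares have 95% Wilson intervals and a count of 0 allows 3 counts. The intervals cover counting error only. Motifs were searched in RefSeq windows, and gene positions are from GENCODE vM21.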

Additional observations from a re-analysis of the deposited data

Results flagged for a closer look

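Mdm2 had a log2 fold change of -0.17 in oligodendrocyte-like, -0.13 in astrocyte-like and -0.54 in endothelial-like nuclei, with both Sel1L SynCre libraries below both Sel1L fl/fl libraries in each, while over all neuron-like nuclei both Sel1L SynCre libraries were above both others. Bcl2l11 had -0.38 in endothelial-like nuclei, again opposite to all neuron-like nuclei. None of these values was called, and the differences between neurons and other classes were not tested. How many of all genes had groups apart in these classes or over all neuron-like nuclei was not counted.

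The Cre transcript was counted with 415 UMIs in Sel1L fl/fl replicate 1, although that label gives no Cre, and with 0 in replicate 2. Without that library the calls of Cdkn1a in Sst-like and L4/5 IT-like neurons passed the threshold no longer (adjusted p 0.101 and 0.0518 in edgeR), and the other 4 calls were kept.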

How the results depend on the processing

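In the 14 neuron subtypes 4 calls of members were made. The count was 1 with DESeq2, 2 with at least 10 counts in every library, 0 with pseudobulks thinned to 880866 UMIs and 1 to 4 when a library was left out: 2 without Sel1L fl/fl replicate 1, and 1 without Sel1L SynCre replicate 1 or replicate 2. In the 5 other classes 2 calls became 4 with no filter on low counts, 0 with at least 10 counts, 0 thinned to 130609 UMIs, and 1 to 4 when a library was left out (4 without Sel1L SynCre replicate 1, 1 without replicate 2). Over all neuron-like nuclei 0 calls became 2 with DESeq2, 2 with no filter and 0 to 1 when a library was left out (1 without Sel1L fl/fl replicate 1). Thinning of that sum was not run. The labels do not say that replicate numbers pair the animals. Same-numbered libraries deviated together with correlations of -0.16 to 0.14 over 20 sums, from 2 pairs. Replicate 1 of both groups expressed Ddx3y and replicate 2 Xist, so each group holds 1 male and 1 female. Sex is thus part of the spread within a group in the main test, and a group with a library left out holds a single sex. A replicate block is therefore also a block on sex, and the 2 cannot be told apart here. The block gave 7, 3 and 2 calls in these 3 comparisons, in place of 4, 2 and 0. The added calls were Bcl2l11 in L4/5 IT-like, Cdkn1a and, lower, Ccng1 in Deptor-led neurons (adjusted p 0.0403, 0.0405 and 0.0413), Bbc3 in oligodendrocyte-like nuclei (0.00198), and Cdkn1a and Bcl2l11 in all neuron-like nuclei (0.00507 and 0.0336). Bcl2l11 in L4/5 IT-like, Cdkn1a in Deptor-led and Bbc3 in oligodendrocyte-like nuclei passed the low-count filter only through the Sel1L SynCre libraries. The difference between subtypes gave 0 calls in every alternative run. From few UMIs, Cdkn1a was higher without Derl3 in 5 of 6 pairs of Sst-, Pvalb- and DG-like nuclei and in 3 when thinned. It was lower without Derl3 in both L4/5 IT-like libraries. Classes apart in level went from 1 to 2 with doublets kept. Of the refitted single gene values 180 stayed on their side of the threshold, 14 lost a call, 17 gained one and 0 changed direction. These refits cover the called pairs and some other pairs picked by hand, not all members in all classes. Fits in which the gene was not tested are left out. The lack of a change of direction therefore says nothing of the other pairs. Why the counts moved was not tested, beyond the fewer UMIs or libraries of the thinned and left-out fits. Calls over all genes under these alternatives are not given here, so a change in a count may not be particular to the members. Depth limits Pmaip1, Tnfrsf10b, Eda2r and Cdkn1a in CA1-, Vip- and DG-like neurons.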
